A study of Caenorhabditis elegans with 4 samples.

Results

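The *ugt* genes of *Caenorhabditis elegans* encode UDP-glucuronosyltransferases. Members were chosen from the deposited table of gene counts: every gene whose WormBase symbol is *ugt* followed by a number and whose reads sum to at least 40 over the 4 libraries. This left 63 of the 67 *ugt* genes in the table, among 16196 of 20380 genes in all that reach the same sum. The rule used the summed count alone, and it was applied without regard to condition.

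Wild-type N2 worms grew from L1 to L4 at 20°C on one of a pair of bacterial foods, which made double-stranded RNA against *xrn-2*, the gene of a nuclear exoribonuclease, or carried the insertless L4440 vector (mock). All animals shared strain and temperature and were fed bacteria of one of these kinds. Whole animals were collected at the L4 stage after 40 to 42 h in mock and, as *xrn-2* RNAi slows growth, after 48 to 52 h in *xrn-2(RNAi)*, so that condition and time on the food cannot be told apart. Poly(A) RNA was sequenced from 2 samples of each condition, named replicates 1 and 2, and the p-values below measure only the spread between these samples, since the labels do not say that they are separate cultures.

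UDP-glucuronosyltransferases (UGTs) are enzymes of the endoplasmic reticulum membrane that transfer a sugar from a UDP-sugar to small lipophilic molecules. The conjugates are more soluble in water and are more readily exported, which makes UGTs, together with cytochromes P450 and glutathione S-transferases, a main part of the defence against drugs, plant and bacterial toxins, and of the turnover of endogenous lipids. In nematodes the sugar added is mostly glucose, the family is large and many of its genes lie in tandem, and the intestine is a main site of its expression.

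Levels are given as reads scaled to the mean library total (scaled reads). Total counts per library ranged from 41105706 to 48451504, and the median *ugt* gene had 378 to 431 scaled reads in a library. The targeted gene itself was not clearly lower under the label *xrn-2(RNAi)*. In replicate 1 it had 3993 reads in mock versus 5835, and in replicate 2 5948 versus 5977. In scaled reads these were 4247 versus 5265 and 6192 versus 6032. Conditions are given as labelled. By the staging described in the methods, the libraries of replicate 1 were well matched in developmental time and those of replicate 2 less so, and the study therefore relied mainly on the former. The same staging placed the mock and the *xrn-2(RNAi)* library of replicate 2 at later times than those of replicate 1. Here both replicates enter the fits, and the values of each replicate are also given apart. Mock replicate 2 stood apart in the stage-dependent cuticle genes. The hypodermal collagen *rol-6* had 132 reads there, against 34083 in mock replicate 1 and 30588 and 16460 in *xrn-2(RNAi)*. Fold changes within a replicate compare 1 library with 1 other, on the log2 scale with a pseudocount of 8, and have no test. On this scale the median of the 16196 genes was 0.17 in replicate 1 and 0.37 in replicate 2, so that values near these show no departure from the bulk of genes.

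The *ugt* family as a whole took fewer reads in both libraries labelled *xrn-2(RNAi)*. The 63 genes together had 94094 and 75268 scaled reads in mock replicates 1 and 2, and 42674 and 35326 in *xrn-2(RNAi)*. Both *xrn-2(RNAi)* libraries lay below both mock libraries, and the ratio within a replicate was 0.454 in replicate 1 and 0.469 in replicate 2. Between libraries of the same condition the ratio was nearer 1, with 0.800 for mock replicate 2 over mock replicate 1 and 0.828 for the *xrn-2(RNAi)* libraries. Much of the difference lay in the most counted genes. The 6 with the most reads, *ugt-22*, *ugt-47*, *ugt-62*, *ugt-46*, *ugt-12* and *ugt-16*, summed to 48000.2 and 35763 scaled reads in mock versus 14785 and 9173 in *xrn-2(RNAi)*. The same 6 genes held 51.0% and 47.5% of the *ugt* reads in mock replicates 1 and 2 but 34.6% and 26.0% in *xrn-2(RNAi)*. They were picked by their mean over all 4 libraries, mock included, so part of this fall in share is built into the choice. *ugt-12* (means of 5870 scaled reads in mock and 857 in *xrn-2(RNAi)*) and *ugt-16* (3923 and 688) rank among the 6 through mock. With *ugt-22* left out, the sum of the family was 74347 and 68089 scaled reads in mock against 38199 and 33926 in *xrn-2(RNAi)*. In whole animals, fewer cells that express a gene and less RNA per cell cannot be told apart.

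**Figure D1:**
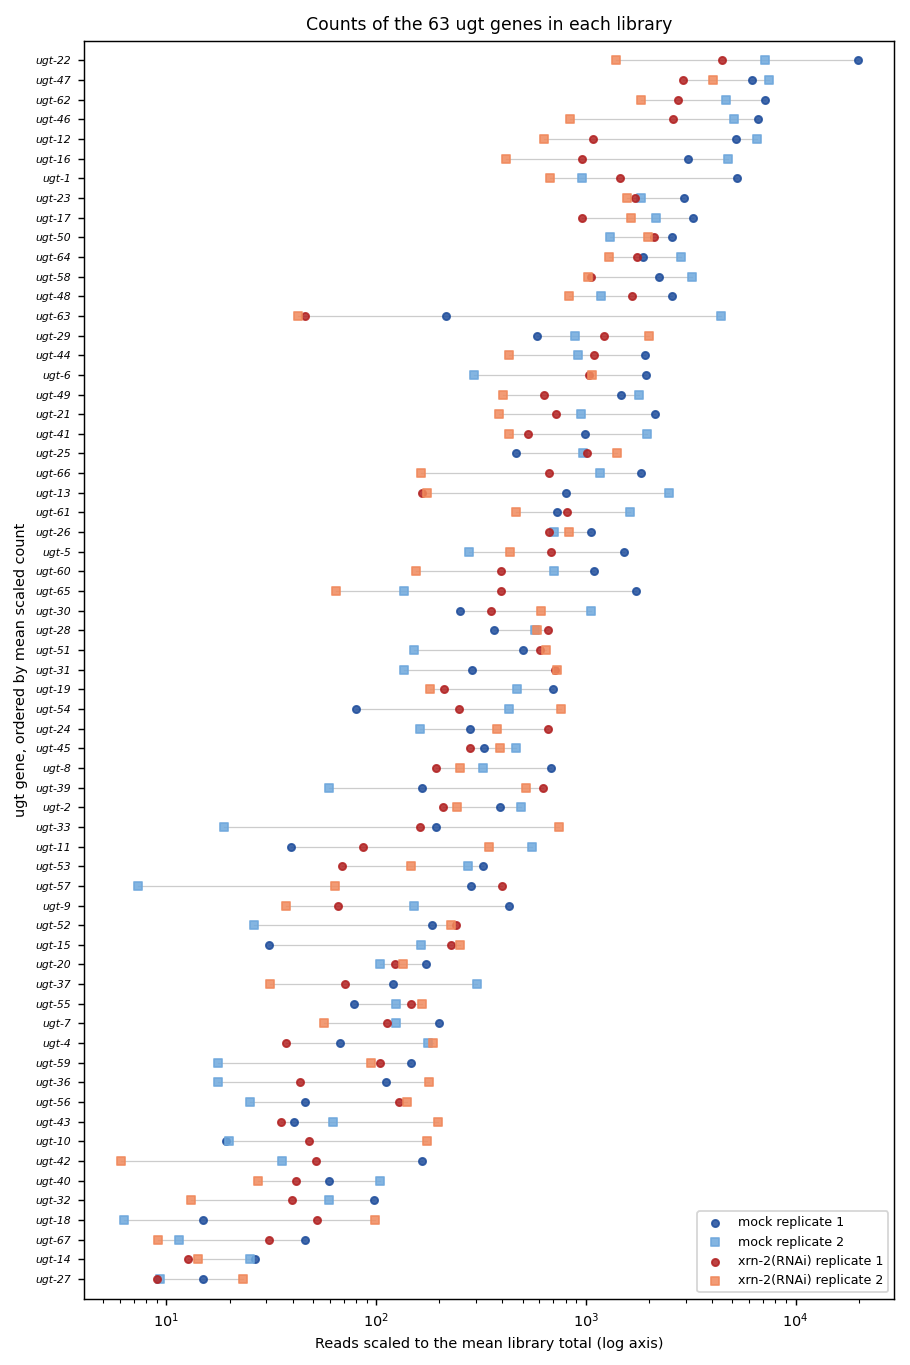
Scaled reads of each of the 63 *ugt* genes (log axis) in the 2 mock libraries (blue) and the 2 *xrn-2(RNAi)* libraries (red and orange), with genes ordered by their mean and a grey line from the lowest to the highest library. The 6 most counted genes at the top have both *xrn-2(RNAi)* libraries below both mock libraries, while lower in the plot the colours are mixed. The mean that sets the order includes the mock libraries, which favours genes high in mock.

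Gene by gene, 34 of the 63 members were lower in the *xrn-2(RNAi)* library of both replicates, against 16.6% of all genes, and 15 were higher in both, against 49.1% of all genes. The others differed in direction between the replicates. The median log2 fold change of the members was -0.74 in replicate 1, with the middle of the genes between -1.41 and 0.31 (quartiles). In replicate 2 it was -0.49, with quartiles at -1.63 and 0.83. With TMM in place of total-count scaling, which brought the median of all genes to 0.01 and 0.02, the medians were -0.86 and -0.84. Within replicate 1, 45 members were lower, against 40.9% of all genes, and 24 were at least 2-fold lower and 10 at least 2-fold higher, against 6.42% and 12.9%. Within replicate 2, 37 members were lower, against 26.5% of all genes, and 23 were at least 2-fold lower and 15 at least 2-fold higher, against 6.24% and 22.4%. Members spread widely, from -2.56 to 2.60 in replicate 1 and from -6.46 to 4.81 in replicate 2. The replicates share no library, and across the 63 genes their fold changes correlated with Pearson's r of 0.63 and Spearman's rho of 0.69. Across the 59 members with a mean of at least 50 scaled reads they were 0.62 and 0.67. Across all 13967 genes with such a mean they were 0.33 and 0.30. Genes are not independent replicates, and these correlations are given as a description.

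No member passed an adjusted p of 0.05 in edgeR's quasi-likelihood test across 16178 genes with the replicate as a block, and neither did any other gene (0% of the genes tested). At an unadjusted p under 0.05 in the same test, 26 members were lower and 5 were higher, against 5.83% and 6.66% of all genes tested. DESeq2 with the same design gave 29 members lower and 7 higher at an adjusted p under 0.05, against 8.90% and 8.07% of all genes. The calls therefore depend on the tool, and an exact permutation test of 2 libraries against 2 cannot go below p = 0.333. By position alone, 27 members had both *xrn-2(RNAi)* libraries below both mock libraries, against 10.3% of all genes, and 13 had both above, against 35.5%. With TMM scaling these were 32 below and 10 above, against 19.9% and 19.8% of all genes.

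A difference of at least 2-fold in the same direction in both replicates was found in 23 members. Of these, 16 were lower, against 2.20% of all genes, and 7 were higher, against 7.46%. With TMM scaling 21 were lower and 4 higher, against 3.35% and 5.91% of all genes, so that both numbers depend on the scaling. Of the 21 members with the highest mean scaled counts (963 to 8200.2), 17 were lower in both replicates and 2 were higher. Among all 5803 genes in this range of counts 16.7% were lower in both and 55.5% higher in both. The 21 members in the middle of the range split into 9 lower and 6 higher, where 17.1% of all genes in that range were lower and 45.4% higher. Of the 21 with the fewest reads (means of 14.1 to 188 scaled reads), 8 were lower and 7 higher, against 13.9% and 47.0% of all genes in their range. These ranks rest on means over all 4 libraries, mock included. A gene high in mock alone can therefore rank high, as *ugt-63* did through mock replicate 2 (4419 scaled reads). The ranks are thus not independent of the differences counted within them, and a relation of level to direction was not tested.

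**Figure D2:**
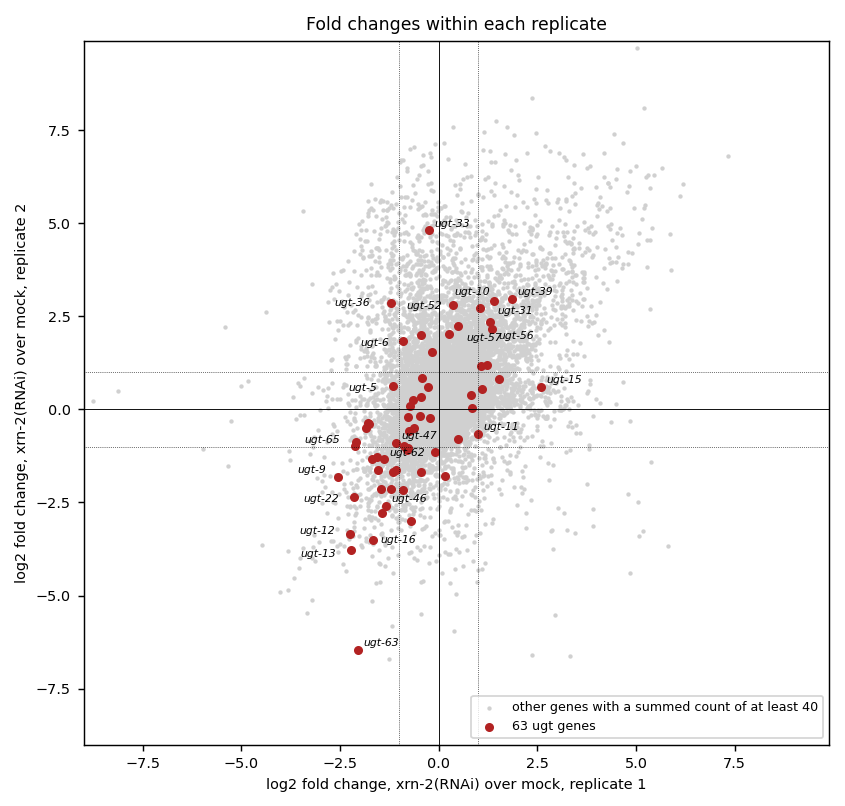
Log2 fold change of *xrn-2(RNAi)* over mock in replicate 1 (x axis) and replicate 2 (y axis), 1 library per condition in each. Red points are the 63 *ugt* genes and grey points the other genes with a summed count of at least 40, dotted lines mark 2-fold, and names are given for the 22 genes chosen by rule. The 16 genes at lower left, with *ugt-63* the lowest in replicate 2 (-6.46), were at least 2-fold lower in both replicates and the 7 at upper right at least 2-fold higher.

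The *ugt* transcripts with the highest level per kilobase of exon were *ugt-22*, *ugt-47*, *ugt-62*, *ugt-12*, *ugt-46* and *ugt-16*, in this order, with means over the 4 libraries of 3694, 3116, 2421, 1984, 1306 and 1285 scaled reads per kilobase. The lowest member, *ugt-27*, had 8.89. Each of the 6 highest had both *xrn-2(RNAi)* libraries below both mock libraries. Ranking by a mean that includes mock favours genes that are high in mock. *ugt-22*, which has been tied to the handling of the anthelmintic albendazole, had 19748 and 7179 scaled reads in mock replicates 1 and 2 and 4475 and 1399.7 in *xrn-2(RNAi)*. The *xrn-2(RNAi)* library was about equally far below mock within each pair, at log2 fold changes of -2.14 and -2.35, although the mock libraries themselves differed by -1.46. Its log2 fold change over both replicates was -2.52 (standard error 0.29, adjusted p = 0.254 from edgeR). Over the other fits its adjusted p ranged from 2.77e-25 with DESeq2 to 1.00 with edgeR when the *xrn-2(RNAi)* library of replicate 2 was left out.

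*ugt-47* was the most even of the 6, with 6193 and 7506 scaled reads in mock versus 2919 and 4047 in *xrn-2(RNAi)*. The mock mean of 6849 ± 928 (SD, n = 2) and the *xrn-2(RNAi)* mean of 3483 ± 797 (SD, n = 2) were separated by more than either SD, with a log2 fold change of -1.26 (standard error 0.24, adjusted p = 0.260 from edgeR). For *ugt-62* the values were 7151 and 4650.1 in mock against 2741 and 1836 in *xrn-2(RNAi)*. Its fold changes within the replicates, -1.38 and -1.34, were among the closest to each other in the family. *ugt-46*, which is X-linked, had 6646 and 5105 scaled reads in mock versus 2608 and 843 in *xrn-2(RNAi)*, with the lower value again in replicate 2.

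*ugt-12* and *ugt-16* were lower by larger factors. *ugt-12* had 5197 and 6543 scaled reads in mock but 1080.1 and 634 in *xrn-2(RNAi)*. Its means were 5869.7 ± 952 and 857 ± 316 (SD, n = 2 each), and its log2 fold change was -3.09 (standard error 0.45, adjusted p = 0.254 from edgeR). *ugt-16* had 3065 and 4781 in mock versus 962 and 415 in *xrn-2(RNAi)*, a log2 fold change of -2.87 (standard error 0.65, adjusted p = 0.284 from edgeR). In both genes mock replicate 2 was the highest library and the *xrn-2(RNAi)* library of replicate 2 the lowest.

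Among members of lower level, *ugt-13* had a similar pattern to *ugt-12*. It had 807 and 2496 scaled reads in mock, against 166 and 175 in *xrn-2(RNAi)*. The *xrn-2(RNAi)* libraries were nearly equal while the mock libraries differed by 1.62 on the log2 scale, and the log2 fold change over both was -3.33 (standard error 0.60, adjusted p = 0.255 from edgeR). *ugt-9* was lower in a different way, with 429 and 151 scaled reads in mock versus 65.9 and 37.3. Its lowest mock library was still above both *xrn-2(RNAi)* libraries. Besides *ugt-63*, described further on, and the genes above other than *ugt-47*, 8 more were at least 2-fold lower in both replicates and were named after their values were seen. These were *ugt-58*, *ugt-49*, *ugt-21*, *ugt-66*, *ugt-60*, *ugt-19*, *ugt-42* and *ugt-32*. Their log2 fold changes ranged from -1.69 to -1.07 in replicate 1 and from -2.78 to -1.28 in replicate 2, and in 7 of the 8 the conditions did not overlap. The exception was *ugt-42*, at 166 and 35.4 scaled reads in mock versus 51.4 and 6.05 in *xrn-2(RNAi)*.

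Of the 7 genes at least 2-fold higher in both replicates, 6 were of low or middle level. *ugt-39* had 166 and 59.3 scaled reads in mock replicates 1 and 2 and 624 and 517 in *xrn-2(RNAi)*. Its means were 113 ± 75.4 and 571 ± 76.2 (SD, n = 2 each), and its log2 fold change was 2.24 (standard error 0.48, adjusted p = 0.276 from edgeR). *ugt-31* had 285 and 136 in mock versus 711 and 731 in *xrn-2(RNAi)*, where the libraries were nearly alike. The log2 fold change of *ugt-31* was 1.60 (standard error 0.43, adjusted p = 0.328 from edgeR).

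*ugt-56* had 45.7 and 24.98 scaled reads in mock versus 128 and 140.3 in *xrn-2(RNAi)*, and *ugt-10* had 19.1 and 19.8 against 47.8 and 176. In *ugt-10* it was the mock libraries that agreed, and the *xrn-2(RNAi)* libraries differed by 1.72 on the log2 scale. *ugt-15* and *ugt-52* also lay above mock in both replicates, but with 1 mock library close to *xrn-2(RNAi)*. For *ugt-15* this was mock replicate 2 (30.8 and 163 in mock, 227 and 252 in *xrn-2(RNAi)*). For *ugt-52* it was mock replicate 1 (184 and 26.0 in mock, 239 and 228 in *xrn-2(RNAi)*). The difference in *ugt-15* thus came mainly from replicate 1 and that in *ugt-52* mainly from replicate 2, and their adjusted p in edgeR's test was 0.595 and 0.607.

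The remaining 3 genes at least 2-fold higher in both replicates, named after their values were seen, were *ugt-18*, *ugt-24* and *ugt-29*. *ugt-18* had 14 and 6 reads in mock versus 58 and 98 in *xrn-2(RNAi)*. It was the only one of the 7 with a mean under 50 scaled reads. *ugt-29* was the exception in level, with 582 and 889 scaled reads in mock versus 1226 and 2009 in *xrn-2(RNAi)*. It was 1 of the 2 among the 21 most counted members that were higher in both replicates, the other being *ugt-25*. Both *ugt-24* and *ugt-29*, and *ugt-10*, fell short of 2-fold in at least 1 replicate with TMM scaling.

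A further set of members differed as much between libraries of one condition as between conditions. Between the mock libraries, 20 members were at least 2-fold lower and 10 at least 2-fold higher in replicate 2, against 17.6% and 9.83% of all genes. Between the *xrn-2(RNAi)* libraries the numbers were 13 and 8, against 6.17% and 8.65%. *ugt-63* had the largest such difference. It had 216 scaled reads in mock replicate 1, 4419 in mock replicate 2, and 46.0 and 42.4 in *xrn-2(RNAi)*. Although both mock libraries lay above both *xrn-2(RNAi)* libraries, mock replicate 2 alone held most of its reads, and the log2 fold changes within the replicates were -2.05 and -6.46 (over both, -4.74 with a standard error of 1.59 and an adjusted p of 0.392 from edgeR).

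*ugt-57* and *ugt-65* were low in mock replicate 2. *ugt-57* had 266 and 7 reads in mock versus 442 and 63 in *xrn-2(RNAi)*, so that both libraries of replicate 2 were below both of replicate 1. In *ugt-65* the order was similar, with 1730.5 and 136 scaled reads in mock versus 393 and 64.6 in *xrn-2(RNAi)*, and *xrn-2(RNAi)* was below mock within each pair. *ugt-11* went the opposite way, with 39.4 in mock replicate 1, 554 in mock replicate 2, and 86.6 and 347 in *xrn-2(RNAi)*. For these 3 genes the replicate separated the libraries and the condition did not.

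In *ugt-33*, *ugt-36*, *ugt-6* and *ugt-5* the fold changes of the replicates pointed in opposite directions. *ugt-33* had 194 and 18.7 scaled reads in mock versus 162 and 744 in *xrn-2(RNAi)*, or log2 fold changes of -0.25 and 4.81. *ugt-36* had 105 and 17 reads in mock versus 48 and 178 in *xrn-2(RNAi)*, with log2 fold changes of -1.22 and 2.87. It was the only member with a difference of at least 2-fold in opposite directions, against 2.33% of all genes.

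For *ugt-6* the *xrn-2(RNAi)* libraries were alike at 1039 and 1071 scaled reads, while mock had 1937 in replicate 1 and 294 in replicate 2. *ugt-5* had 1524 and 277 in mock versus 679 and 436 in *xrn-2(RNAi)*. In each of the 4 genes mock replicate 2 was the lowest library, as it was for *rol-6* and for *dpy-7* (8417 and 24 reads in mock, 5632 and 568 in *xrn-2(RNAi)*), a collagen gene of the cuticle furrows. The part of developmental time in these differences was not tested.

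**Figure D3:**
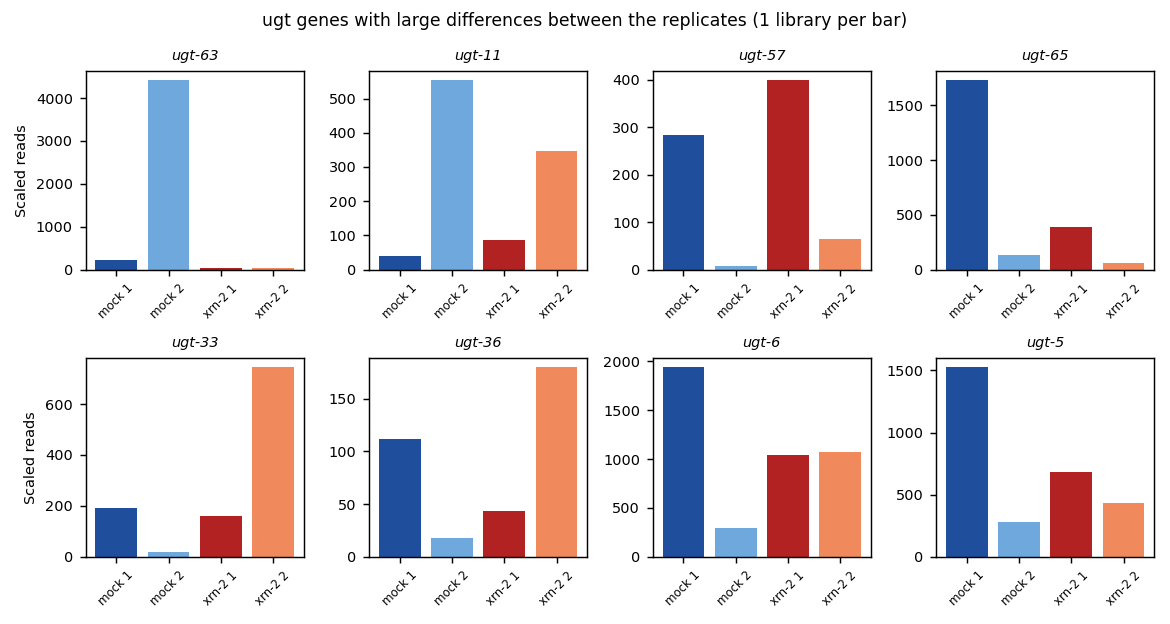
Scaled reads of 8 *ugt* genes (y axis, from 0, with its own range in each panel) in mock and *xrn-2(RNAi)* libraries of replicates 1 and 2, 1 library per bar. For *ugt-63* mock replicate 2 (4419) is far above the rest, and for *ugt-33*, *ugt-36*, *ugt-6* and *ugt-5* mock replicate 2 is the lowest bar.

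Most members lie on chromosome V, with 38 of the 63, and 12 lie on chromosome IV. With a *ugt* gene counted as a neighbour of another where at most 1 other protein-coding gene lay between them in the Ensembl annotation of WBcel235, 37 of the 67 *ugt* genes fell into 12 groups, which hold 33 of the 63 members. Neighbours did not all share a direction. Of the 33, 16 were lower and 8 higher in both replicates, against 16.6% and 49.1% of all genes. Of the 30 members without a *ugt* neighbour 18 were lower and 7 higher, against the same shares. The longest group has 8 genes. In their order these were *ugt-12*, *ugt-11*, *ugt-9*, *ugt-10*, *ugt-67*, *ugt-8*, *ugt-14* and *ugt-13*, of which 6 were lower in both replicates, *ugt-10* was higher in both, and *ugt-11* differed between replicates. The group thus holds *ugt-12* at one end and *ugt-13* at the other, which had the third and the second lowest mean fold change of the members with at least 50 scaled reads, with *ugt-10*, of the opposite direction, between them.

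The group of *ugt-18*, *ugt-16* and *ugt-15* was also divided. *ugt-16* in the middle was at -1.66 and -3.50 on the log2 scale, *ugt-18* at 1.40 and 2.91, and *ugt-15* at 2.60 and 0.60. In the group of *ugt-39*, *ugt-41* and *ugt-36*, *ugt-39* was higher at 1.86 and 2.96 and *ugt-41* lower at -0.90 and -2.16. *ugt-5* and *ugt-6* were each lower in replicate 1 (-1.16 and -0.89) and higher in replicate 2 (0.64 and 1.84), with mock replicate 2 far below mock replicate 1 (-2.43 and -2.69). *ugt-4* between them had -0.74 and 0.08, and its mock libraries differed the other way (1.29). *ugt-55* and *ugt-56* were both higher in both replicates, and *ugt-47* and *ugt-17*, and *ugt-1* and *ugt-2*, were lower in both. Whether the authors' counting split reads between similar neighbours is not given in the sources used here, so values of close copies are less certain.

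**Figure D4:**
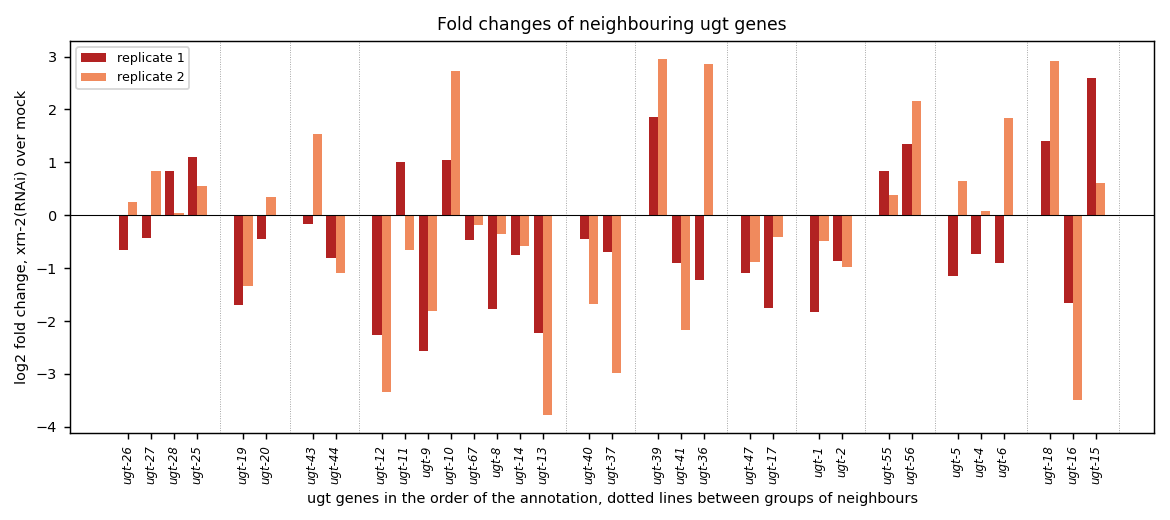
Log2 fold change of *xrn-2(RNAi)* over mock in replicate 1 (dark bars) and replicate 2 (light bars) for the 33 *ugt* genes with a *ugt* neighbour, in the order of the annotation. Within the 8-gene group that begins with *ugt-12*, 6 genes are below 0 in both replicates and *ugt-10* is above 0 in both, and *ugt-16* is below 0 between *ugt-18* and *ugt-15*, which are above it.

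Of 25 genes outside the family that lie beside the described *ugt* genes and have at least 40 reads, 4 were lower and 15 higher in both replicates, near the shares of all genes (16.6% and 49.1%). At least 2-fold in both replicates, 0 were lower and 4 higher, against 2.20% and 7.46% of all genes. The medians of the 25 were 0.11 and 0.74. *ugt-63* and *ugt-5* are each listed as the first gene of an operon, a set of genes transcribed together, with a chemoreceptor gene downstream. These partners were hardly counted, *srab-3* with 3 and 10 reads in mock versus 12 and 10 in *xrn-2(RNAi)*, and *srbc-43* with 1 read over the 4 libraries. Neither partner was high in mock replicate 2, where *ugt-63* had 4419 scaled reads. Exons of *ugt-22* share bases with *srz-29* on the opposite strand, and those of *ugt-47* with *srd-49*. In the same table *srz-29* had at most 11 reads and *srd-49* at most 20 in a library, far below *ugt-22* and *ugt-47*.

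Of 7 listed genes of UDP-sugar supply, 6 matched a counted gene. In both replicates 3 were lower and 1 was higher, against 16.6% and 49.1% of all genes. In edgeR's test 0 passed, against 0% of all genes. *gale-1*, the UDP-galactose epimerase, had 8842 and 4405 reads in mock versus 5256 and 2220 in *xrn-2(RNAi)*, a log2 fold change of -1.28 (standard error 0.25, adjusted p = 0.260 from edgeR). The phosphoglucomutase genes *pgm-1* and *pgm-2* were also lower in both replicates, by 0.78 and 0.55 and by 0.42 and 0.62 on the log2 scale. The gene higher in both was *sqv-1*, the UDP-glucuronate decarboxylase, at 0.72 and 0.21. *sqv-4*, the UDP-glucose dehydrogenase that makes UDP-glucuronic acid, differed in direction between the replicates (-0.57 and 0.32), as did *sqv-7* (-0.35 and 0.60). The list as a whole had a median of -0.50 in replicate 1 and -0.17 in replicate 2.

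Among 13 regulators of detoxification genes, 9 were higher and 1 lower in both replicates, where 49.1% of all genes were higher and 16.6% lower. In edgeR's test 0 passed, against 0% of all genes. *skn-1*, the worm Nrf factor that activates many conjugating enzymes, had log2 fold changes of 0.35 and 0.43, and *mdt-15*, a Mediator subunit that works with it, 0.07 and 0.30, close to the medians of all genes. The largest differences were in *pqm-1*, a zinc finger factor of stress and metabolic genes, and *nhr-114*, a nuclear hormone receptor that acts in the intestine and germline. *pqm-1* had 777 and 1024 reads in mock versus 3107 and 3933 in *xrn-2(RNAi)*, a log2 fold change of 1.56 (standard error 0.23, adjusted p = 0.254 from edgeR). *nhr-114* had 3225 and 1455 reads in mock versus 691 and 546 in *xrn-2(RNAi)*, a log2 fold change of -2.23 (standard error 0.33, adjusted p = 0.254 from edgeR).

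Markers of the intestine did not share a direction. All 8 were detected in every library, 4 were lower and 1, *elt-7*, was higher in both replicates, against 16.6% and 49.1% of all genes. In edgeR's test 0 passed, against 0% of all genes. Their summed level was 222492 to 307318 scaled reads in mock versus 151831 to 179392 in *xrn-2(RNAi)*. Most of this sum was *asp-1* and *act-5*. *asp-1* had 111767 and 129007 scaled reads in mock versus 112483 and 98556 in *xrn-2(RNAi)*, and *act-5* had 44150 and 93266 versus 32440 and 17783. The sum therefore does not stand for all 8 markers. The intestinal peptide transporter *pept-1* (13604 and 18511 reads in mock, 5849 and 4389 in *xrn-2(RNAi)*) and the V-ATPase subunit *vha-6* (35549 and 40824 against 16805 and 12364) were at least 2-fold lower in both replicates. The gut esterase *ges-1* (2230 and 1057 against 2449 and 1501) and the intestinal GATA factor *elt-2* (1431 and 968 against 1537 and 1407) were not lower in replicate 2. Germline markers were 55400 to 108187 scaled reads in mock versus 92547 to 114146 in *xrn-2(RNAi)*, and those of body wall muscle 334596 to 446787 and 332139 to 352388. The part of tissue proportions in the *ugt* differences was not tested.

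The 4 *ugt* genes left out by the rule were *ugt-34*, *ugt-3*, *ugt-35* and *ugt-38*, with 29, 25, 7 and 3 reads over the 4 libraries. Just inside it were *ugt-27*, *ugt-14* and *ugt-67* with 56, 77 and 97 reads. Of these, *ugt-14* had 25 and 24 reads in mock versus 14 and 14 in *xrn-2(RNAi)*, and was the member of lowest mean level whose conditions did not overlap. *ugt-3*, outside the rule, had 10 and 12 reads in mock versus 2 and 1 in *xrn-2(RNAi)*, and with so few reads its difference was not assessed.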

How the data were processed

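Poly(A) RNA of N2 animals was measured in 4 libraries, mock and *xrn-2(RNAi)*, replicates 1 and 2, assigned by their titles. The authors aligned TruSeq reads to ce10 with qAlign of QuasR (spliced alignment) and sorted the alignments with Samtools 1.2. The deposited values are unnormalized counts, per WS220 gene, of reads over its exons. The QuasR version and the strand setting are not given in the sources used here, so reads of overlapping genes cannot be told apart by strand.

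Symbols came from a table of gene names, which matched 19179 of 20380 identifiers. Exon lengths and gene order came from the Ensembl annotation of WBcel235, which is not the build of the files, and coordinates are therefore left out. Following the study, each library was brought to the mean total (43719995 reads) and a pseudocount of 8 added before log2 ratios of the libraries with the same replicate number. The test across genes was the quasi-likelihood F test of edgeR 4.0.16 (R 4.3.3) after filterByExpr and TMM, with Benjamini-Hochberg adjusted p-values. Replicate number was a block term because the study compares libraries by number. Standard errors were derived from the fold change and its F statistic. DESeq2 1.42.0 was the alternative tool. Both tools were also run on simulated counts. There edgeR, at a spread near that of these data, recovered few of the genes made to differ. Its lack of calls is therefore no sign that genes did not differ. DESeq2 recovered more of them, though most were still missed, and it also called genes that were not made to differ. The DESeq2 calls may therefore include false ones.

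Members and lists were chosen with earlier results of these data known. Genes were described by rule: the 6 with the highest level per kilobase and, at a mean of at least 50 scaled reads, the 6 highest and 6 lowest mean fold changes of one direction, the 4 with the largest differences between replicates, the 4 with the largest between mock libraries, and genes in listed operons. Pairs of similar proteins, also part of the rule, were not analysed here. Of the marker lists, those of hypodermis, neurons, sperm and excretory cell are given only in the closing section.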

Additional observations from a re-analysis of the deposited data

How the results depend on the processing

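The number of *ugt* genes past an adjusted p of 0.05 depended on the tool. It was 0 in edgeR under each scaling, without the filter on low counts, and with any 1 library left out (fits that assume the lone library of a condition to vary like the other condition), against 29 lower and 7 higher with DESeq2, which called 2746 of all 16178 genes. Without the replicate block edgeR also gave 0 lower and 0 higher, with 20 lower and 5 higher at an unadjusted p under 0.05, where 1644 of 16178 genes were under it in either direction. The labels pair the libraries by number alone, the methods stage the libraries of a number near each other, and deviations of same-numbered libraries from their condition means correlated with r = 0.57 across 16178 genes. Scaling moved the median of replicate 2 from -0.49 to -0.84 (TMM) and -0.85 (median-of-ratios). Under both, the number of genes at least 2-fold higher in both replicates went from 7 to 4, and the number lower from 16 to 21. With 1 replicate alone, 23 to 24 genes were at least 2-fold lower and 10 to 15 higher.

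Of the 22 genes named by rule, 15 kept the sign of their fold change in every fit run. The exceptions were genes whose replicates or mock libraries differ. With 1 library or 1 replicate left out, the log2 fold change ranged from -0.25 to 4.81 for *ugt-33*, from -1.22 to 2.87 for *ugt-36*, from -1.10 to 1.84 for *ugt-6*, from -1.47 to 4.68 for *ugt-57*, from -4.13 to 0.45 for *ugt-65*, from -2.09 to 2.20 for *ugt-11* and from -1.66 to 0.69 for *ugt-5*. Without the replicate block *ugt-6* was at -0.31, and with library totals *ugt-11* was at 0.20. The cause was not tested. The counts of genes whose conditions do not overlap under other scalings, and the sum without *ugt-22*, were added after seeing the data. In simulated counts with a spread near that of these data, edgeR called few of the genes made to differ. DESeq2 called more of them, but also genes that were not made to differ. Whether depth limited the calls was not tested.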

Other observations

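Marker lists of other cell types were measured beside the *ugt* genes. No gene of these lists passed edgeR's test at an adjusted p of 0.05, where 0% of all genes did. The 6 hypodermal markers summed to 119266 and 6205 scaled reads in mock replicates 1 and 2 and to 61276 and 27143 in *xrn-2(RNAi)*. The low sum in mock replicate 2 lay in 3 collagen genes, *bli-1* (68051 and 185 scaled reads in mock replicates 1 and 2), *rol-6* (36251 and 137) and *dpy-7* (8952 and 24.98). The transcription factor genes *lin-26* (4196 and 3469), *elt-1* (568 and 528) and *elt-3* (1248 and 1861) differed far less. The 5 neuronal markers summed to 10413 to 13068 scaled reads in mock and 13438 to 15532 in *xrn-2(RNAi)*, and the 4 sperm markers to 1856 to 2035 and 2116 to 3453. The 4 markers of the excretory cell were at 18746 to 19679 scaled reads in mock versus 11074 to 11789 in *xrn-2(RNAi)*. In the excretory list, 2 genes, *vha-1* and *aqp-8*, were lower and 0 higher in both replicates, against 16.6% and 49.1% of all genes. Most of the sum was *vha-1*, with 16485 and 12973 scaled reads in mock versus 8601 and 7800 in *xrn-2(RNAi)*. *exc-4* (-0.15 and 0.57 on the log2 scale) and *clh-3* (0.65 and -0.07) differed in direction between the replicates. The part of these cell types in the *ugt* differences was not tested.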
